A study of Rattus norvegicus with 12 samples.

Results

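The interleukin-1 and interleukin-18 system was followed in rat hippocampus through 10 genes chosen by symbol: Il1a, Il1b, Il18, Il1rn, Il1r1, Il1rap, Myd88, Irak1, Nlrp3 and Casp1. Each had 1 row among the 23760 genes of the deposited tables, and all 10 were among the 19050 genes that passed the filter on low values. The filter asked for at least 1 normalised read (a read count divided by its library's factor) in at least 6 libraries, in either group. RNA sequencing had been carried out on 6 samples labelled AS3h and 6 labelled NC, all hippocampus of Rattus norvegicus. The title of the series names CCR3, a chemokine receptor, and impaired cognition caused by long work under water. The labels expand neither abbreviation and give no strain, age, sex, treatment or allele for either group. They do not say that the samples of a group came from separate animals, so a p-value here covers only how far these samples scatter, which may be technical.

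Interleukin-1 alpha and beta are inflammatory cytokines that signal through a receptor of 2 chains, IL1R1 and the accessory protein IL1RAP. The adaptor MYD88 and kinases of the IRAK family carry the signal from the receptor to NF-kB. The sensor NLRP3, with the adaptor ASC, activates caspase-1, which cuts the precursors of interleukin-1 beta and interleukin-18 into their secreted forms. In brain, microglia are the best known source of these ligands, while IL1R1 is known from endothelium, choroid plexus, astrocytes and dentate granule neurons.

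Reads assigned to genes totalled 29615243 to 36947557 in AS3h libraries, against 30128112 to 38106489 in NC libraries. At these depths 3 reads corresponded to 2.58 to 3.26 normalised reads, a limit that covers counting error only. Dentate granule and pan-neuronal markers were present in all 12 libraries. Across the transcriptome 960 genes passed as higher and 804 as lower in AS3h (limma on log2 values, Benjamini-Hochberg adjusted p under 0.05; 9.26% of genes tested), counts that dropped to 588 and 450 without NC 2 and to 606 and 501 without AS3h 4. Choroid plexus markers stood apart in AS3h 5, with a summed level of 71581 normalised reads, and in AS3h 4, with 7748, whereas the remaining 4 AS3h libraries had 361 to 1648 and the NC libraries 234 to 1339. In whole tissue, fewer cells of a type and less RNA per cell cannot be told apart.

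Of the 10 genes, 1 was higher in AS3h, 0 were lower and 9 did not pass. The gene that passed was Il1r1, the signalling receptor chain. Over all genes tested, 5.04% were called higher and 4.22% lower. At an unadjusted p under 0.05, 2 of the 10 were higher (Il1r1 and Myd88) and 1 was lower (Il1rap), beside 24.9% of all genes tested in either direction, and limma-voom also called 1 higher and 0 lower. Their median log2 fold change (AS3h over NC) was 0.16, beside -0.0043 over all genes tested. In none of the 10 genes were the AS3h and NC groups free of overlap, whereas AS3h lay wholly above NC in 3.01% of all genes tested and wholly below in 2.04%, 5.05% together.

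**Figure D1:**
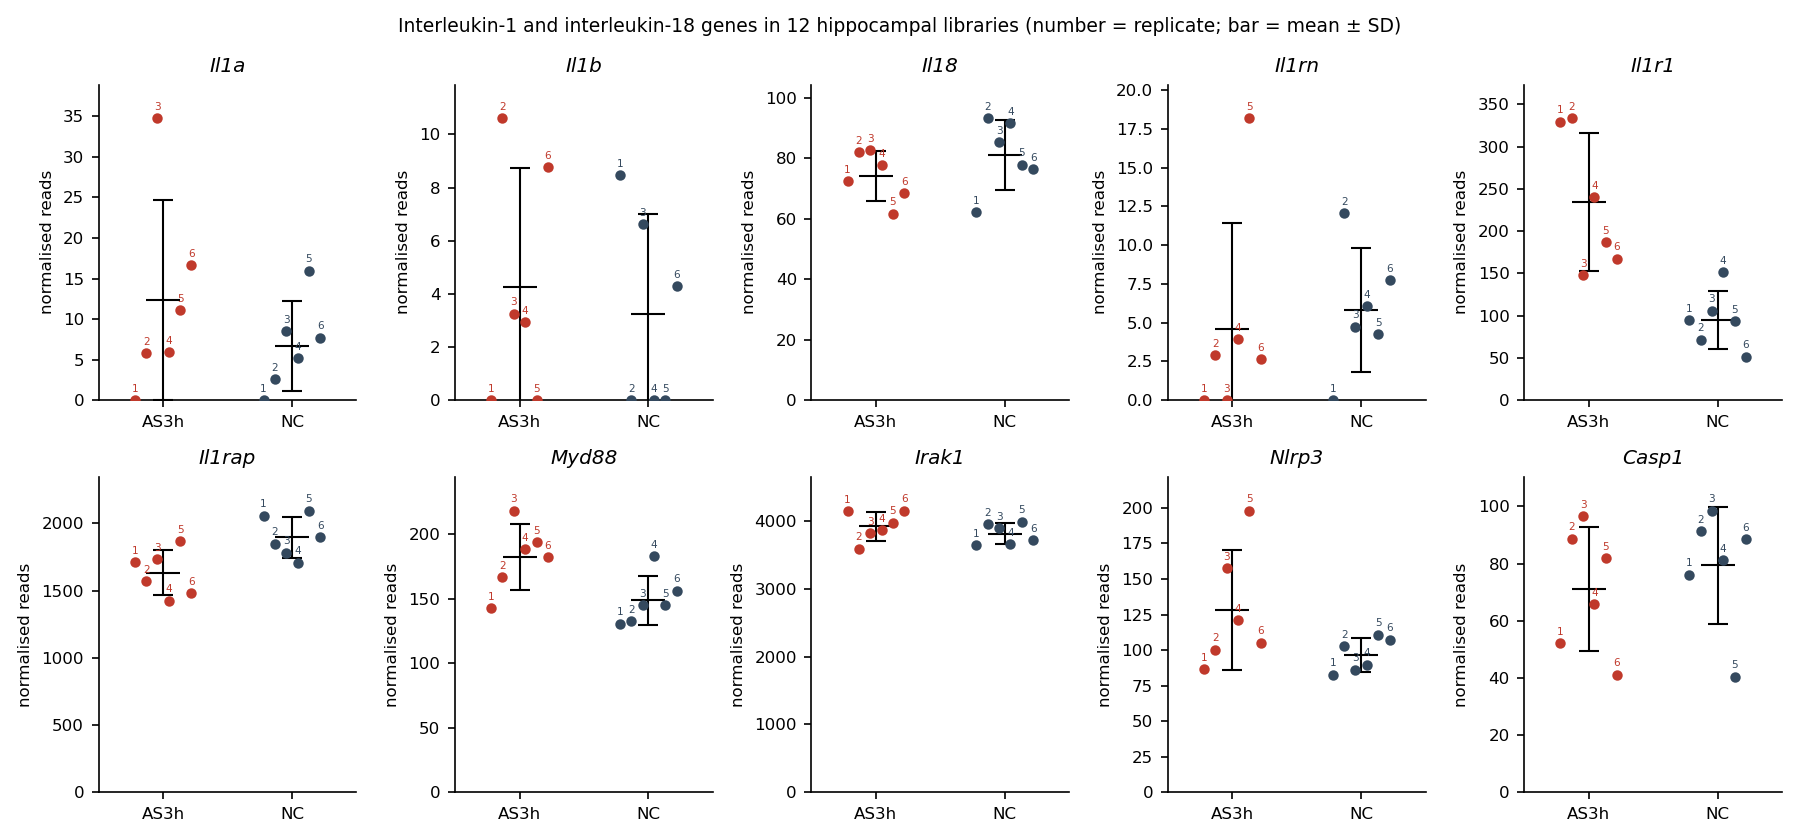
Normalised reads of each gene (vertical axes, each from 0) in the 6 AS3h and 6 NC libraries; numbers are replicates, bars are means with SD (lower ends below 0 are not drawn). Il1r1 lies at 148 to 334 in AS3h against 51.5 to 151 in NC, and the groups overlap in the other 9 genes too.

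Il1r1 had 148, 214 and 334 normalised reads in AS3h (lowest, median and highest of 6 libraries), against 51.5, 94.4 and 151 in NC. AS3h 1 and AS3h 2 were the highest at 330 and 334, and 5 of 6 AS3h libraries lay above every NC library. The exception was AS3h 3, at 148 against 151 in NC 4. Mean levels were 234 ± 81.5 in AS3h and 94.9 ± 33.8 in NC (SD, n = 6 each), resting on 1431 and 619 reads. This gave a log2 fold change of 1.30 ± 0.25 (SE; 95% interval 0.76 to 1.84), a 2.46-fold difference on the scale of log2 of the value plus 1 (limma adjusted p = 0.00585). It ranged from 1.14 to 1.45 in the 12 omissions of 1 library, with adjusted p of at most 0.0180 in those omissions.

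Markers of blood and choroid plexus were higher in some of the same libraries. Of 9 choroid plexus markers tested 0 passed limma, 0 had an unadjusted p under 0.05 and limma-voom called 0, with a median log2 fold change of 1.71. All 9 had a log2 fold change above 0, from 1.19 to 2.91. Of 7 blood markers tested 0 passed limma, 4 had an unadjusted p under 0.05, all higher, and limma-voom called 0, at a median of 0.69. All 7 were above 0, from 0.56 to 1.62. The summed blood markers ranged from 12472 to 39365 normalised reads in AS3h and from 9618 to 23402 in NC. Il1r1 and the blood sum were both highest in AS3h 2 (334 and 39365). AS3h 1 and AS3h 6 had similar blood sums (28170.6 and 29034.5) and 330 and 167 normalised Il1r1 reads. Among NC libraries NC 3 had the highest blood sum (23402) and 106 normalised Il1r1 reads. NC 4 had the most Il1r1 of that group (151) at a blood sum of 16298. AS3h 5, with the most choroid plexus reads, had 187 normalised Il1r1 reads, and AS3h 6 had the fewest choroid plexus reads in its group (361). Without AS3h 4 and AS3h 5 the log2 fold change of Il1r1 was 1.34 (adjusted p = 0.0271). With the mean levels of both marker lists as covariates it was 0.78 and did not pass (adjusted p = 0.261), and counts over all genes were then 58 higher and 76 lower. The part of blood and choroid plexus in the Il1r1 difference was not tested.

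**Figure D2:**
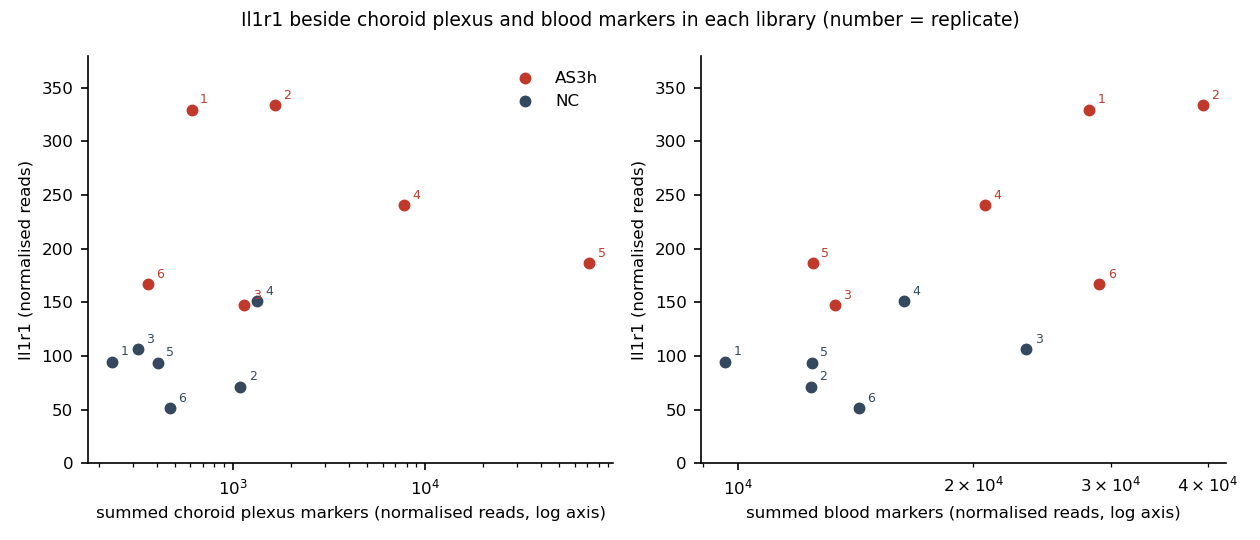
Il1r1 (vertical axis, normalised reads) against the summed normalised reads of choroid plexus markers (left) and blood markers (right), both on log axes, 1 point per library with its replicate number. AS3h 5 has 71581 choroid plexus reads and 187 Il1r1 reads, while AS3h 1 has 608 and 330.

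Set against markers of 5 cell types, Il1r1 was higher in AS3h relative to 4 of the 5 lists. The measure was the log2 level of Il1r1 minus the mean log2 level of a list, compared over libraries by two-sided exact permutation with p adjusted over the lists. It reuses the Il1r1 values that had already passed in limma, so these p-values are no separate evidence that Il1r1 was higher. Relative to microglial markers it was -1.52 ± 0.50 in AS3h and -3.15 ± 0.54 in NC (SD, n = 6 each), a difference of 1.63 with all 6 AS3h libraries above every NC library (exact adjusted p = 0.00361). Microglial levels themselves were lower in every AS3h library than in any NC library, and as a covariate in limma they left Il1r1 at 1.38 (adjusted p = 0.392). The differences were 1.39 relative to astrocyte markers, with the same exact p, and 1.53 relative to dentate granule neuron markers (exact adjusted p = 0.00541), where 5 of 6 AS3h libraries lay above NC. In these lists 1 of 8 astrocyte and 1 of 5 dentate granule neuron markers had a log2 fold change above 0, at medians of -0.078 and -0.29. No marker of either list passed limma. Each difference thus holds the change of the list as well as that of Il1r1.

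Relative to endothelial markers the difference was 1.70, and 1.40 without the tight junction gene Cldn5, which had 0 reads in 4 AS3h and 2 NC libraries. Both had an exact adjusted p of 0.00361, and 0.00216 was the smallest unadjusted p that 6 against 6 libraries allow. The endothelial list itself differed between groups: of 9 markers tested Esam rose, Flt1 and Emcn fell, and the median log2 fold change was -0.12. Relative to choroid plexus markers Il1r1 was at 1.27 ± 2.54 in AS3h and 1.82 ± 0.79 in NC, a difference of -0.55 that did not pass (exact adjusted p = 0.695). That difference was 0.35 without AS3h 5.

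**Figure D3:**
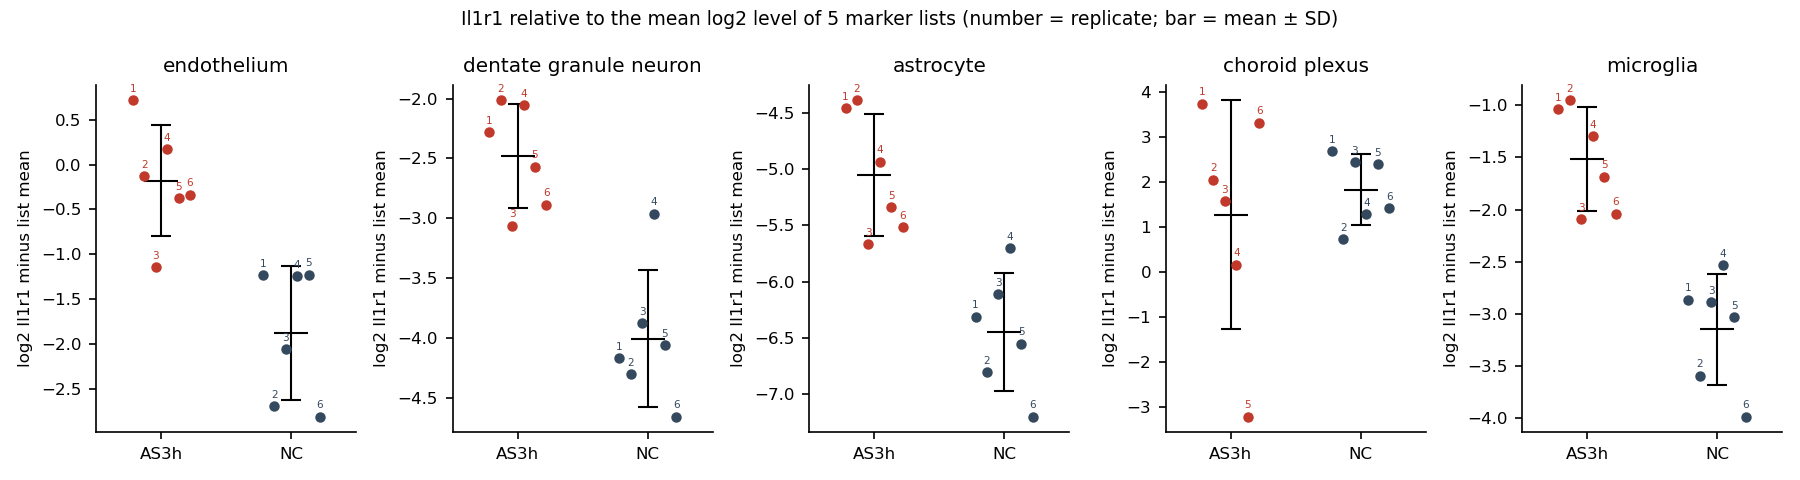
Log2 Il1r1 minus the mean log2 level of each of 5 marker lists (vertical axes), in AS3h and NC libraries numbered by replicate, with mean and SD. AS3h libraries lie above NC for endothelial, astrocyte and microglial lists, and the choroid plexus panel spreads from -3.22 in AS3h 5 to 3.74 in AS3h 1.

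The promoter of the receptor chain that passed is shown for the region from 250 bases before the annotated start to 50 bases after it (RefSeq, GRCr8, chr9:50034133-50034432, plus strand). The tables' processing notes name another build, mRatBN7.2. Capitals mark the 50 bases from the start onward, and 65.3% of the bases are G or C.

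Il1r1: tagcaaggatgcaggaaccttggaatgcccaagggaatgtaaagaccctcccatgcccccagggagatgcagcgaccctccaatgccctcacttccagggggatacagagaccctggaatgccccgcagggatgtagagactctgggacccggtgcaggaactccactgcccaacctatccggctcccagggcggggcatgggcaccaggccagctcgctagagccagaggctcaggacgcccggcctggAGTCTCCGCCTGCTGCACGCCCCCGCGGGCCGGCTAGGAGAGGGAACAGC

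Short motifs were searched on both strands of this window in all 10 genes. AGAACA is a half-site of the glucocorticoid receptor, and TGANTCA is a loose form of the AP-1 site, with any base at N. The NF-kB site was searched in 2 forms. The form listed first was the NF-kB consensus, which was added after seeing the matches of the other form. The second was 3 G, any 2 bases, 3 T and 2 C. Both forms are given because they matched different genes. The 10 genes had 11 promoters, and a gene counted if any of its promoters matched, whereas the percentages count promoters. AGAACA or its reverse complement occurred in 2 of the 10 genes (Irak1 and Nlrp3) and in 20.7% of all 33469 promoters of the table. TGANTCA occurred in 3 (Il1a, Il18 and Myd88) and in 7.33% of promoters. The match read TGACTCA in Il1a and TGAATCA in Il18 and Myd88. The NF-kB consensus occurred in 2 (Il1r1 and Il1rap) and in 7.51% of promoters, and the second form in 1 (Il1rn) and in 1.53%. Matched stretches of AP-1 and NF-kB are given with 10 flanking bases on each side and the match in capitals, read along the gene; they are matches of letters only.

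Il1a (AP-1, GRCr8 chr3:136990013-136990039, minus strand, match starting 12 bases before the start): gagagaagccTGACTCAgacttaaagt
Il18 (AP-1, GRCr8 chr8:59802067-59802093, plus strand, match starting at base 6 after the start): tcttctcttcTGAATCAgctcttctac
Myd88 (AP-1, GRCr8 chr8:127956422-127956448, minus strand, match starting 208 bases before the start): taaacaaggcTGAATCActtcaccacg
Il1r1 (NF-kB consensus, GRCr8 chr9:50034238-50034267, plus strand, match on the opposite strand starting 135 bases before the start): cagagaccctGGAATGCCCCgcagggatgt
Il1rap (NF-kB consensus, GRCr8 chr11:87704408-87704437, minus strand, match starting 85 or 166 bases before its 2 annotated starts): ccctagtcttGGGAAGCCCCgatcgcgggc
Il1rn (NF-kB second form, GRCr8 chr3:27520183-27520212, plus strand, match starting 129 bases before the start): ggaaatatgaGGGTTTTTCCgcttttcaca

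The partner chain did not pass. Il1rap, which completes the signalling receptor, had 1425, 1641 and 1866 normalised reads in AS3h (lowest, median, highest), against 1707, 1873 and 2094 in NC. Of the 6 AS3h libraries 3 lay below every NC library, and the highest, AS3h 5, lay within the NC range. Its log2 fold change of -0.22 ± 0.073 had a 95% interval of -0.37 to -0.066 (limma adjusted p = 0.0709). Omitting AS3h 5 brought it past the threshold (-0.26, limma adjusted p = 0.0357), as did blocking on replicate number (limma adjusted p = 0.0402). The labels do not say that libraries are paired by number, and same-numbered libraries did not deviate together (correlations from -0.015 to 0.027). Read counts were not set against gene length, so the levels of both chains are not compared with each other.

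The ligand genes were at or near the limit of detection, except Il18. Il1b had 0, 3.10 and 10.6 normalised reads in AS3h (lowest, median, highest) against 0, 2.15 and 8.46 in NC, from 27 and 21 reads in all. Both groups had libraries without a read: it had 0 reads in 2 AS3h and 3 NC libraries, and no library of either group had over 11 reads. The log2 fold change of 0.39 ± 0.80 had a 95% interval from -1.32 to 2.09 (limma adjusted p = 0.817), which includes differences of 2-fold in either direction, so none of that size was detectable at this depth.

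Il1a, the membrane-associated and nuclear form of interleukin-1, had 0, 8.50 and 34.8 normalised reads in AS3h and 0, 6.45 and 15.99 in NC, from 74 and 42 reads. AS3h 3 alone held 32 of the 74 reads, and 2 of 6 AS3h libraries lay above every NC library. Il1a gave a log2 fold change of 0.59 ± 0.80 (95% interval -1.11 to 2.28; limma adjusted p = 0.701), which was 0.088 without NC 1 and 1.20 without AS3h 1. Il18, made as a precursor in many cell types, was steadier, at 61.6, 75.0 and 82.6 in AS3h against 62.0, 81.6 and 93.1 in NC. The groups overlapped over most of their ranges, with a log2 fold change of -0.12 ± 0.14 (95% interval -0.42 to 0.17; limma adjusted p = 0.632).

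Il1rn encodes the antagonist that occupies IL1R1 without signalling. It had 0, 2.76 and 18.2 normalised reads in AS3h and 0, 5.39 and 12.1 in NC, from 28 and 39 reads. AS3h 5, the library with the most choroid plexus reads, held 18 of the 28 AS3h reads. Its log2 fold change was -0.70 ± 0.74 (95% interval -2.27 to 0.87; limma adjusted p = 0.606). It ran from -1.20 without AS3h 5 to -0.35 without AS3h 1, was -1.28 with a pseudocount of 0.1 and was -2.37 with covariates for blood and choroid plexus (limma adjusted p = 0.190).

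Of the signal carriers, Myd88 had 143, 185 and 218 normalised reads in AS3h against 131, 145 and 183 in NC. AS3h 3 was the highest, and 3 of 6 AS3h libraries lay above every NC library. For Myd88 the log2 fold change was 0.29 ± 0.12 (95% interval 0.03 to 0.54), which did not pass (limma adjusted p = 0.153). Irak1, a kinase that is recruited to MYD88, had 3588, 3913 and 4149 normalised reads in AS3h against 3641, 3802 and 3984 in NC. Its log2 fold change of 0.042 ± 0.047 had the narrowest interval of the 10 genes, -0.058 to 0.14 (limma adjusted p = 0.630).

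Of the inflammasome genes, Nlrp3 had 86.4, 113 and 198 normalised reads in AS3h against 82.7, 96.2 and 111 in NC. AS3h 5 (198) and AS3h 3 (158) stood highest, 3 of 6 AS3h libraries lay above every NC library, and the other 3 lay within the NC range. For Nlrp3 the log2 fold change was 0.35 ± 0.18 (95% interval -0.037 to 0.74; limma adjusted p = 0.250). Casp1, the processing protease, had 41.2, 73.8 and 96.7 in AS3h against 40.5, 84.8 and 98.5 in NC, and both groups covered nearly the same range. Its log2 fold change was -0.17 ± 0.24 (95% interval -0.68 to 0.35; limma adjusted p = 0.728). Of 10 microglial markers tested 2 fell and 0 rose, with a median log2 fold change of -0.31 and summed levels of 9019.9 to 10557 in AS3h against 9569.8 to 11926 in NC. At an unadjusted limma p under 0.05, 6 of the 10 were lower and 0 higher, beside 24.9% of all genes tested in either direction. With the mean microglial level as a covariate Nlrp3 was at 0.10 (limma adjusted p = 0.969) and Casp1 at -0.27 (limma adjusted p = 0.927), in a fit where that level and the group cannot be told apart.

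**Figure D4:**
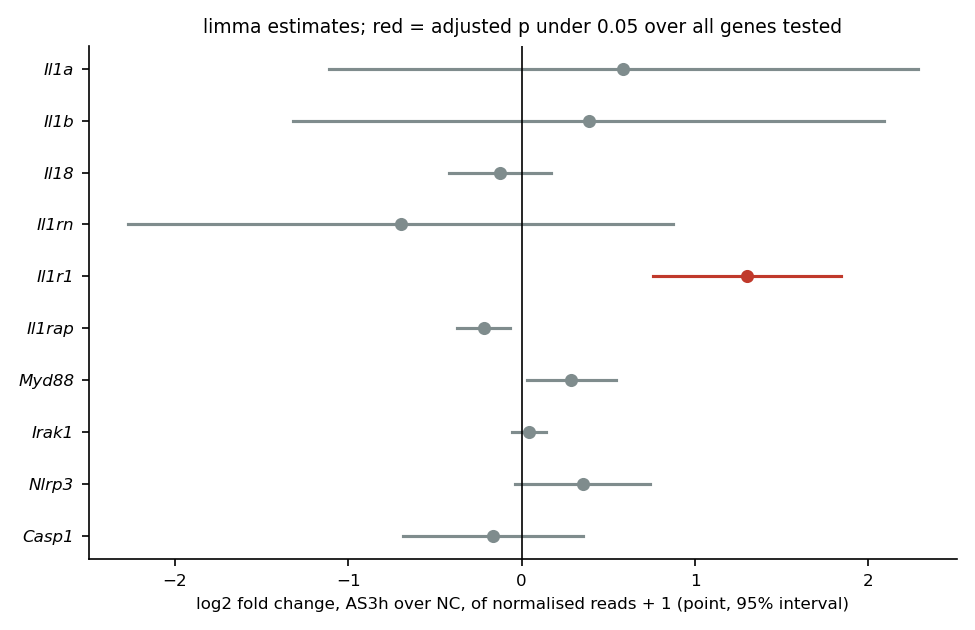
Log2 fold change of each gene (AS3h over NC, horizontal axis) with its 95% interval from limma, in order of role. Il1r1 at 1.30 is the one estimate past the threshold, and the intervals of Il1a, Il1b and Il1rn are the widest.

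Other genes of the pathway were taken from 5 lists of 71 symbols, of which 62 had a row and 57 were tested. Of the 57, 6 were higher, 3 lower and 48 did not pass, that is 10.5% higher and 5.26% lower beside 5.04% and 4.22% of all genes tested. Their median log2 fold change was 0.058. In 5 of the 57 the groups did not overlap, beside 5.05% of all genes tested. These lists were chosen with earlier results of these data known.

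Among 15 adaptors and kinases 3 rose, 0 fell and 12 did not pass, at a median log2 fold change of 0.039. Irak4, the kinase that is recruited first to MYD88, had 142, 198 and 272 normalised reads in AS3h against 108, 126 and 137 in NC. All 6 AS3h libraries lay above every NC library, with means of 197 ± 47.1 and 124 ± 9.59 (SD, n = 6 each) and a log2 fold change of 0.63 ± 0.14 (limma adjusted p = 0.0145). Irak2, a kinase-like partner that sustains signalling, had 469.8, 534 and 672 in AS3h against 366, 403 and 452 in NC, again without overlap (log2 fold change 0.40 ± 0.093, limma adjusted p = 0.0161). With the replicate block its adjusted p was 0.0507.

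Tollip, which binds IRAK1 and restrains signalling, had 5113, 5849 and 5989 normalised reads in AS3h against 4575, 4872 and 5247 in NC. AS3h 2 at 5113 lay within the NC range and the other 5 above it (log2 fold change 0.22 ± 0.051, limma adjusted p = 0.0141). Its call was lost when AS3h 4 and AS3h 5 were left out (adjusted p = 0.0570). With covariates for blood and choroid plexus Irak4, Irak2 and Tollip were at 0.62, 0.36 and 0.31 and did not pass (adjusted p = 0.164, 0.225 and 0.0688).

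Among 15 genes of the inflammasome and of ligand processing 1 rose, 3 fell and 11 did not pass, at a median log2 fold change of -0.069. P2rx7, the ATP-gated channel that triggers NLRP3, had 276, 316 and 370.2 normalised reads in AS3h against 379, 452 and 522 in NC. All 6 AS3h libraries lay below every NC library, and P2rx7 fell by 0.51 on the log2 scale (SE 0.095, limma adjusted p = 0.0045). It also passed with covariates for blood and choroid plexus (-0.68, adjusted p = 0.0365). Panx1, a channel through which cells release ATP, had 512, 571 and 650.2 in AS3h against 405, 465 and 487 in NC, without overlap (log2 fold change 0.33 ± 0.074, limma adjusted p = 0.0127; 0.38 and 0.144 with the covariates).

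Pycard, which encodes the inflammasome adaptor ASC, had 12.1, 18.1 and 27.96 normalised reads in AS3h against 25.9, 34.7 and 53.2 in NC, from 116 and 244 reads. It fell by 0.96 on the log2 scale (SE 0.28, limma adjusted p = 0.0415), and 5 of 6 AS3h libraries lay below every NC library. Its call was lost without any 1 of AS3h 1, AS3h 3, AS3h 6, NC 1, NC 2, NC 3 and NC 6, and over all 12 omissions its log2 fold change ran from -1.09 to -0.85 with an adjusted p of at most 0.0877. It was also lost with no filter on low values (adjusted p = 0.0541), with the replicate block (0.106) and with covariates for blood and choroid plexus (-1.54, adjusted p = 0.0822).

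Capn1, a calpain subunit, a protease family that cuts the interleukin-1 alpha precursor, had 190.1, 205 and 258 in AS3h against 239, 273 and 320.3 in NC. It fell by 0.34 (SE 0.0997, limma adjusted p = 0.0424). This call was lost without any 1 of AS3h 1, AS3h 3, AS3h 4, AS3h 5, AS3h 6, NC 1, NC 3, NC 4 and NC 5 (over all 12 omissions -0.40 to -0.30, adjusted p of at most 0.0919). It was also lost with no filter (0.0531), with the block (0.112), without AS3h 4 and AS3h 5 (0.161) and with the covariates (0.0922). The 2 microglial markers that fell were Cx3cr1 and Gpr34, at log2 fold changes of -0.55 and -0.71. Mean microglial log2 levels were 9.21 to 9.43 in AS3h and 9.45 to 9.78 in NC, without overlap, so the covariate and the group cannot be told apart. In a fit with that covariate none of the 9 pathway genes past the threshold passed, and P2rx7 was at -0.17.

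**Figure D5:**
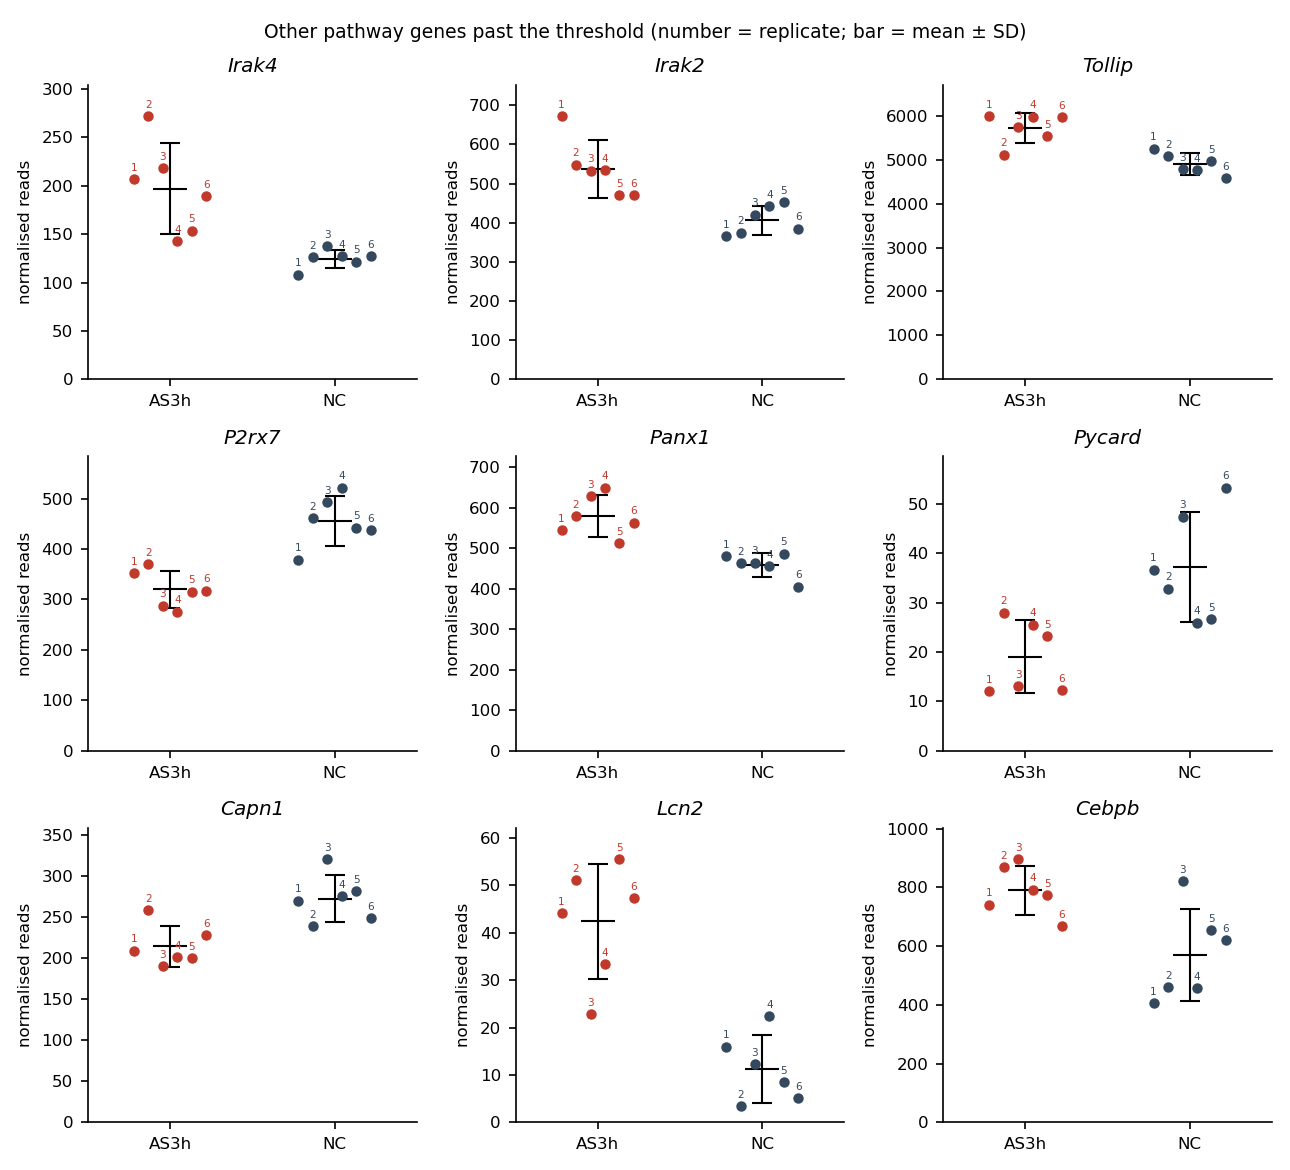
Normalised reads (vertical axes, each from 0) of the 9 other pathway genes that passed, in AS3h and NC libraries numbered by replicate, with mean and SD. Irak4, Irak2, Panx1 and Lcn2 lie wholly above NC in AS3h and P2rx7 wholly below, while Tollip, Pycard, Capn1 and Cebpb overlap.

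Of 18 genes that respond to interleukin-1 in many cell types 2 rose, 0 fell and 16 did not pass, at a median log2 fold change of 0.11. Lcn2, which encodes the iron-carrier-binding protein lipocalin-2, had 22.8, 45.8 and 55.6 normalised reads in AS3h against 3.45, 10.4 and 22.5 in NC, without overlap, from 261 and 74 reads. For Lcn2 the log2 fold change was 1.98 ± 0.38 (limma adjusted p = 0.00502), and 1.36 with covariates for blood and choroid plexus (adjusted p = 0.240). Cebpb, an inflammatory and metabolic transcription factor, had 668, 783 and 896 in AS3h against 405, 541 and 821 in NC, with NC 3 at 821 inside the AS3h range (log2 fold change 0.51 ± 0.15, limma adjusted p = 0.043). Its call was lost without any 1 of AS3h 1, AS3h 2, AS3h 3, AS3h 4, AS3h 5, NC 1, NC 2, NC 4 and NC 6 (over all 12 omissions 0.42 to 0.62, adjusted p of at most 0.1002). It was also lost with no filter (0.0587), without AS3h 4 and AS3h 5 (0.124) and with the covariates (0.474).

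None of the other ligands and receptors passed under limma, and limma-voom called 0. Of 2 further ligand genes tested, the alarmin Il33 had 1522, 1558 and 1768 normalised reads in AS3h against 1066, 1431 and 1594 in NC (log2 fold change 0.21 ± 0.083, limma adjusted p = 0.130). Il18bp, which encodes the secreted trap of interleukin-18, had 123, 142 and 182 in AS3h against 103, 108 and 156 in NC (log2 fold change 0.30 ± 0.14, limma adjusted p = 0.187). Both had an unadjusted p under 0.05, and in both genes the groups overlapped.

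Of 7 further receptor genes tested 0 rose and 0 fell, with 1 at an unadjusted p under 0.05. The interleukin-18 receptor chains had few reads. Il18r1 had 3.93, 5.13 and 21.1 normalised reads in AS3h against 0, 0.432 and 7.73 in NC, with 3 NC libraries at 0 and 47 and 17 reads in all (log2 fold change 1.75 ± 0.63, limma adjusted p = 0.0986). It reached 1 normalised read in all 6 AS3h but only 2 NC libraries, so it passed the filter through AS3h. With a pseudocount of 0.1 in place of 1 the value was 3.41, and in limma-voom 2.26, neither past the threshold. Omitting NC 6, 1 of those 2 NC libraries, gave 2.14 (limma adjusted p = 0.0429). Il18rap had 3.03, 10.4 and 17.4 in AS3h against 0, 5.61 and 14.6 in NC (log2 fold change 1.32 ± 0.68, limma adjusted p = 0.241; 2.39 with a pseudocount of 0.1).

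The genes whose levels followed Il1r1 most closely from library to library, after centring each group on its own mean, were Eno4, Tiparp, RGD1565033, RGD1564664 and Trim21. Pearson's r over the 12 libraries was 0.88, 0.88, 0.85, 0.82 and 0.82, the highest of 13864 genes with a mean of at least 50 normalised reads, and is given as a description of libraries that share depth and tissue makeup. None of the 5 passed between groups, and their log2 fold changes ran from -0.33 for Trim21 to 0.21 for Tiparp.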

How the data were processed

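Strand-specific VAHTS Universal V10 libraries were made from 1.3 µg of total RNA (HiPure kit), per the labels' protocols. FastQC 0.11.5, STAR and mRatBN7.2 appear in the submitters' processing notes. The program, strand setting and annotation used for counting were not given in sources used here, so reads of overlapping genes may be shared. The authors deposited log2 values, each of 1 plus the normalised reads of a gene, with a single scaling factor in each library. Whole counts were recovered from 100% of the deposited values (within 0.02 read).

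Because the files hold log2 values and not counts, limma 3.58.1 in R 4.3.3 was used (trend, robust, group only) on genes at 1 or more normalised reads in at least 6 libraries. P-values were adjusted by Benjamini-Hochberg at 0.05 over all genes tested. Exact permutation used all 924 splits (scipy 1.17.1). The members and lists were chosen with earlier results of these data known. Named were the 10 members, up to 4 genes past the threshold per pathway list (2 where none passed) and the 5 genes most like Il1r1. The fit was tested on simulated data with the same spread setting in all genes and changes only in genes with many reads. That test does not cover genes with few reads or differences in tissue makeup. No replicates were merged, since chi-square per degree of freedom was at least 11.9 between any pair of a group. Promoters came from RefSeq (GRCr8), matched by symbol for all 10 genes; the NF-kB consensus was added after seeing the matches of the other NF-kB form. Alternatives were other filters, factors, pseudocount and covariates, limma-voom, a replicate block and omitted libraries; leaving Cldn5 out of its list, and these alternatives for the other pathway genes, were added after seeing the data. Figures were drawn with matplotlib 3.10.9.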

Additional observations from a re-analysis of the deposited data

Results flagged for a closer look

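In 46 groups of 6 libraries (23 named genes), 5 held a library set far from the nearest other, by Dixon's gap on log2 values; chance flags about 1 in 20 groups. Il1rn was at 0 normalised reads in NC 1, against 4.27 in the next lowest NC library, a gap that lies near the limit of detection. Casp1 was at 40.5 in NC 5, against 76.1 in the next lowest NC library. Il33 was at 1066 in NC 1, against 1386 in the next. Panx1 was at 405 in NC 6, against 456 in the next. Il18r1 was at 21.1 in AS3h 1, against 7.07 in the next highest AS3h library.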

How the results depend on the processing

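Il1r1 kept its call in 21 of 23 alternatives, lowest at 0.78 and highest at 1.45, and lost it with covariates for blood and choroid plexus (0.78) or microglia (1.38). With blood and choroid plexus as covariates 58 genes were higher and 76 lower over all genes, 0 members were higher, and 0 pathway genes were higher and 1 lower. With the microglial covariate, which separates the groups, these counts were 10 and 1, 0, and 0 and 0, and Il1b, Il1rn and Il18 turned to -0.95, 0.30 and 0.22. Without AS3h 4 and AS3h 5, 455 genes were higher and 411 lower, and Il1r1 relative to choroid plexus was 0.85. With no filter 1 pathway gene was lower. Same-numbered libraries did not deviate together (correlations from -0.015 to 0.027, 0 of 6 above 0.1; 0 of 6 AS3h libraries were closest to their own number in NC). With the replicate block 691 genes were higher and 605 lower, 1 member was lower and 1 pathway gene was lower; Il1r1 stayed at 1.30 (adjusted p = 0.0112).

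Over the 12 omissions of 1 library, 588 to 983 genes were higher and 450 to 824 lower, 1 member was higher in each, 0 to 1 were lower, and 5 to 6 pathway genes were higher and 1 to 3 lower. Il1r1 relative to choroid plexus ran from -1.05 to 0.35. The cause of these changes was not tested. With so few reads, Il1b, Il1rn and the NC libraries of Il18r1 are limited by depth.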

Other observations

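Il1r2, which encodes the decoy receptor of interleukin-1, did not pass the filter on low values and was chosen after its values were seen. It had 43 reads over the AS3h libraries and 3 over the NC libraries, with 0 reads in 2 AS3h and 5 NC libraries. AS3h 2 and AS3h 6 held the most, at 17.4 and 16.6 normalised reads. These libraries also had the highest summed blood markers, 39365 and 29034.5 normalised reads. AS3h 1, with a similar blood sum of 28170.6, had 3.02 normalised Il1r2 reads. NC 3, with the highest blood sum in NC (23402), had 0. Il1r2 is also known from neutrophils, whose markers had summed levels of 73.4 to 129 normalised reads in AS3h and 81.2 to 151 in NC. Of 5 neutrophil markers tested 0 were higher and 1, Csf3r, was lower. A log2 fold change above 0 was seen in 4 of the 5, with a median over the 5 of 0.89. Another 3 markers missed the filter. The part of blood and neutrophil markers in the Il1r2 reads was not tested. Ccl2, a chemokine gene of the responsive list that also missed the filter, had 22 reads in AS3h and 3 in NC. It had 0 reads in 2 AS3h and 5 NC libraries, and at most 9 in any library. Other genes of that list with few reads went either way. Il6 had 29 reads in AS3h and 61 in NC, Cxcl10 21 and 57, Cxcl1 20 and 22, and Socs3 90 and 57.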
